A study of Mus musculus with 30 samples.

Results

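Cyp26b1, a gene for an enzyme that destroys retinoic acid, was lower in pressure-overloaded hearts of Cpt1a knockout mice than in every other library of the series, and it was followed here together with 8 further genes of the same pathway in mouse hearts. The 9 genes were Cyp26b1 and Cyp26a1 (breakdown), Aldh1a1, Aldh1a2 and Aldh1a3 (synthesis), Dhrs3 (return of retinal to retinol), Rbp4 and Stra6 (transport and uptake) and Rarb (a receptor). They were taken by symbol, and all 9 were found among the 55487 gene identifiers of the count table. The set was chosen by the level of Cyp26b1, which fell in overloaded knockouts. The comparisons of overloaded knockouts with sham knockouts and with overloaded controls, and the interaction of genotype and surgery, are therefore given for these 9 genes as a description with no test. The comparisons that do not contain overloaded knockouts were tested.

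The study asked what the rise of Cpt1a, which encodes the gatekeeper enzyme of mitochondrial fatty acid oxidation, does in the pressure-overloaded heart. RNA was sequenced from 30 mouse hearts taken 8 weeks after transverse aortic constriction (TAC), a band around the aorta that makes the left ventricle pump against a higher pressure, or after a sham operation. In the floxed cohort, 4 groups of 4 hearts were labelled as Cpt1a floxed after sham surgery (FF_sham), Cpt1a floxed after TAC (FF_TAC), cardiac-specific Cpt1a knockout after sham surgery (KO_sham) and the same knockout after TAC (KO_TAC). In the AAV9 cohort, C57Bl/6 mice were given either PBS or AAV9.Cpt1a, a viral vector whose Cpt1a insert is driven by a cardiac troponin T promoter, with 3 hearts in PBS_sham, 3 in PBS_TAC, 4 in AAV_sham and 4 in AAV_TAC. The labels used here do not give the promoter of the Cre that made the knockout, the age of the mice or the part of the heart taken. The PBS mice received no vector, so the vector and its Cpt1a cannot be told apart. For the 4 KO_TAC hearts the treatment and genotype labels (TAC, knockout) were followed, because the titles mention both kinds of operation. The labels do not say further that each library is 1 animal, so a p-value measures the spread between these libraries.

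Retinoic acid is made from vitamin A in steps. Retinol is carried in blood by the protein of Rbp4 and enters some cells through the membrane receptor Stra6. It is oxidised to retinal, which the enzyme of Dhrs3 reduces back to retinol, and the retinal dehydrogenases of the Aldh1a genes oxidise it irreversibly to retinoic acid. Retinoic acid binds nuclear receptors (Rara, Rarb, Rarg) that pair with retinoid X receptors (Rxra, Rxrb, Rxrg) on DNA, and the cytochrome P450 enzymes of the Cyp26 genes oxidise it for removal. In the embryo the pathway sets the length of the heart tube and the growth of the ventricular wall, with Aldh1a2 active in the epicardium. Cyp26a1 and Rarb are classical genes switched on by retinoic acid itself, through direct repeats in their promoters.

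The promoter sequences of the gene that moved most and of both textbook targets are shown to place the elements that retinoic acid receptors are known to bind. They come from RefSeq (GRCm38.p6) and lie upstream of a RefSeq transcription start. The pieces shown end 99 bases (Cyp26b1), 11 bases (Cyp26a1) and 30 bases (Rarb) before it, and all 30 bases of the Rarb piece lie in annotated GENCODE exons. A script looked on both strands for 2 repeat units in the same orientation, where the unit could read AGGTCA, could read AGTTCA, could read GGGTCA or could read GGTTCA, separated by 1, 2 or 5 bases. Capitals mark the repeat units found, and a run that reads TGAACT is AGTTCA on the opposite strand.
Cyp26b1, chr6:84593909-84594060, minus strand: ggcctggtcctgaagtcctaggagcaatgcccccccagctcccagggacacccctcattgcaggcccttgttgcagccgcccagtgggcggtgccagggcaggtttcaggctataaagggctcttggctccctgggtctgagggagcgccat
Cyp26a1, chr19:37697558-37697797, plus strand: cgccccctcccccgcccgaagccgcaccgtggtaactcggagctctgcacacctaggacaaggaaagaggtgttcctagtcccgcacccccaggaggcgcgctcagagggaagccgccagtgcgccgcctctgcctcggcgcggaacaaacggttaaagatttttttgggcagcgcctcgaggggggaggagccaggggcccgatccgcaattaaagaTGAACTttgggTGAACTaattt
Rarb, chr14:16575506-16575535, minus strand: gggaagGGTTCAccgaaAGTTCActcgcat
Both elements found have a spacer of 5 bases, the spacing of the classical retinoic acid response element. The element of Cyp26a1 lies 32 to 16 bases before the start and that of Rarb 53 to 37 bases before it. Of the 9 genes, 8 had at least 1 RefSeq window of 250 bases upstream, 15 windows in all, and only Cyp26a1 and Rarb held such a repeat in these windows. The piece of Cyp26b1 shown, 250 to 99 bases before that start, holds none of these letters. Over all 32851 mouse windows, 140 held a repeat with any of the 3 spacers (0.426%) and 29 held one with 5 bases between the units (0.0883%). Among the 52 other pathway genes listed for comparison, 35 had windows and 1, Bco1, which encodes a carotenoid-cleaving enzyme and was picked out after the search, held a repeat.

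Some libraries stood apart before any of these genes was considered. Counts summed to between 14839758 and 22070373 per library. Cpt1a itself was at 37.79, 43.82, 52.66 and 45.89 CPM (counts scaled by library size) in FF_sham and at 22.43, 46.22, 20.32 and 23.64 CPM in KO_sham, so the library labelled KO_sham 2 was at the level of the controls. In FF_TAC it was at 48.85, 20.3, 16.18 and 33.96 CPM, so the libraries labelled FF_TAC 2 and FF_TAC 3 were at the level of the knockouts, and in KO_TAC it was at 19.51, 11.85, 14.11 and 11.12 CPM. After AAV9.Cpt1a it spanned 56.29 to 88.34 CPM (sham) and 44.77 to 62.62 CPM (TAC), and after PBS 37.4 to 67.82 and 40.25 to 61.55 CPM, so these ranges overlapped. The same 3 libraries of the floxed cohort and all 4 of KO_TAC had summed haemoglobin transcripts of at most 51.1 CPM, against at least 293.9 CPM in the other 23, and they also had the highest levels of early response genes such as Fos and Egr1. The library PBS_sham 3 had 1791 CPM of smooth muscle markers, against 61.47 to 341.9 in the other 29, and the lowest cardiomyocyte sum (20670 CPM). The heart muscle markers Myh6, Tnnt2, Actn2, Tnni3 and Ryr2 were abundant in every library. The log2 fold changes of the tested members in the comparisons with KO_TAC without the 3 libraries, and some without PBS_sham 3, stand beside the results.

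The members differed widely in level. Per kilobase of annotated exon, averaged over the 30 libraries, Dhrs3 stood at 23.9 CPM, Aldh1a1 at 5.60, Aldh1a2 at 3.67, Cyp26b1 at 1.53, Rarb at 1.04, Rbp4 at 0.619, Aldh1a3 at 0.472, Cyp26a1 at 0.112 and Stra6 at 0.0943 CPM per kilobase. Dhrs3 was the highest of the 9 per kilobase in each of the 30 libraries. Aldh1a1 was the highest synthesis gene in this mean, although Aldh1a2 exceeded it per kilobase in FF_sham 2, KO_TAC 3, KO_sham 1 and PBS_sham 2 and in the mean of KO_sham. Cyp26b1 exceeded Cyp26a1 in this mean and in all libraries but KO_TAC 2.

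Cyp26b1 (ENSMUSG00000063415, GRCm38 chr6:84571414-84593908, minus strand) encodes a P450 that hydroxylates retinoic acid. In KO_TAC it was at 1.715, 1.05, 0.5556 and 1.071 CPM, from 35, 14, 10 and 18 counts. In KO_sham it was at 5.342, 33.28, 5.198 and 4.489 CPM and in FF_TAC at 5.641, 5.844, 8.948 and 17.01 CPM. All 4 overloaded knockouts were therefore below all 8 of these libraries, and 1 library, labelled KO_sham 2, stood several times above the rest of its group. In FF_sham the values were 7.937, 30.16, 9.383 and 3.942 CPM, so 1 control sham heart was as high. Among C57Bl/6 mice Cyp26b1 was at 4.765, 6.639 and 8.194 CPM in PBS_sham and at 4.152, 4.088 and 3.279 CPM in PBS_TAC. It was at 9.469, 3.001, 5.492 and 26.94 CPM in AAV_sham and at 5.643, 4.029, 7.441 and 11.18 CPM in AAV_TAC. The lowest library outside KO_TAC was at 3.001 CPM, above the highest of KO_TAC, so all 26 of the others were higher. The gene was chosen by these values, and the share of all genes below all 26 in this way was not counted. Against KO_sham alone 12.1% of all genes were lower without overlap, and against FF_TAC alone 6.8%.

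**Figure D1:**
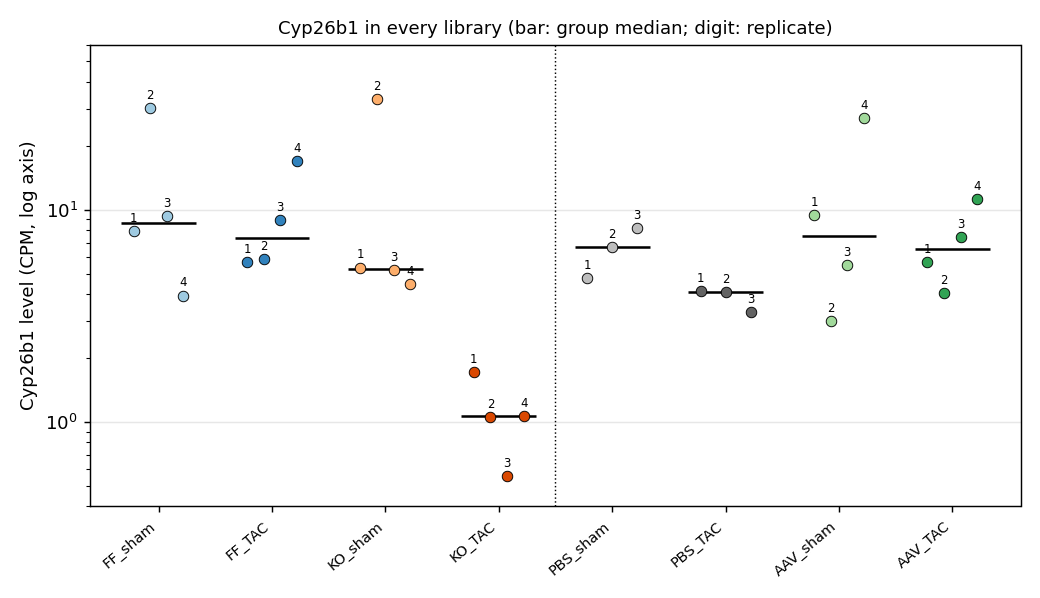
Cyp26b1 in each of the 30 libraries, in CPM on a log axis, by group. Digits are replicate numbers, the short bar is the group median and the dotted line separates the cohorts. The 4 KO_TAC libraries, between 0.5556 and 1.715 CPM, lie below all others, while single sham libraries of 3 groups rise to about 30 CPM.

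By median, the order of the groups ran from FF_sham (8.66 CPM) through AAV_sham (7.481), FF_TAC (7.396), PBS_sham (6.639), AAV_TAC (6.542), KO_sham (5.27) and PBS_TAC (4.088) to KO_TAC (1.06 CPM). Neighbours in that order overlapped in range except KO_sham with PBS_TAC and PBS_TAC with KO_TAC. The plot of Cyp26b1 by library shows this order and the high single libraries, which were FF_sham 2, KO_sham 2, FF_TAC 4 and AAV_sham 4.

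The values that chose the gene are given here as a description. The log2 fold change of Cyp26b1 in KO_TAC against KO_sham was −3.43 (SE 0.84), and it was −2.18 without the library labelled KO_sham 2. Against FF_TAC it was −3.07 (SE 0.83), and −2.61 without FF_TAC 4. With all 3 libraries left out whose Cpt1a went against their label, the fall was −2.18 against KO_sham and −3.36 against FF_TAC. The difference between the TAC effects of the genotypes was −2.97 (SE 1.09), −1.71 without KO_sham 2 and −1.99 without the 3 libraries. So the size of the fall depended on the library labelled KO_sham 2, and the order of the groups did not.

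Some markers of vessel cells moved with Cyp26b1 in the same comparisons. By the test, 11.5% of all genes were lower in KO_TAC than in KO_sham and 6.8% lower than in FF_TAC. In KO_TAC, 3 of 5 endothelial markers (Pecam1, Cdh5, Kdr, Tie1, Emcn) were lower by the test than in KO_sham and 3 of 5 lower than in FF_TAC. Their sum ran from 448.2 to 623.3 CPM in KO_TAC, from 607.8 to 817.6 in KO_sham and from 659 to 877.9 in FF_TAC, and none of the 5 was near 0. Of 4 pericyte markers (Pdgfrb, Rgs5, Kcnj8, Abcc9), 2 were lower against KO_sham and 3 against FF_TAC, and their sum ran from 525.4 to 855 CPM in KO_TAC, 900.8 to 1152 in KO_sham and 851.4 to 1085 in FF_TAC. Across the 30 libraries, log2 Cyp26b1 had a Pearson r of 0.623 with the endothelial sum (0.777 over 16 floxed and 0.329 over 14 AAV9 libraries), as a description of libraries that share cohorts and groups. These sums fell by less than Cyp26b1, and their part in its fall was not tested. In bulk tissue, fewer cells of a type and less RNA per cell cannot be told apart. The low haemoglobin of KO_TAC was shared with 3 libraries in which Cyp26b1 was at 5.844, 8.948 and 33.28 CPM, each above the highest of KO_TAC. These are the 3 libraries whose Cpt1a went against their label, and the part of low haemoglobin in the fall was not tested.

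Where Cyp26b1 could be tested, it did not pass. FF_TAC against FF_sham gave a log2 fold change of −0.46 (SE 0.71, adjusted p = 0.809), and KO_sham against FF_sham gave −0.10 (SE 0.71, adjusted p = 1.0). Neither direction was stable: the first was 0.40 without FF_sham 2, −0.93 without FF_TAC 4 and −0.19 without the libraries low in haemoglobin, and the second 0.75 without FF_sham 2 and −1.37 without KO_sham 2. After PBS, all 3 PBS_TAC libraries were below all 3 of PBS_sham, which 6.54% of all genes tested also showed, with a log2 fold change of −0.77 (SE 0.61, adjusted p = 0.473), or −0.57 without PBS_sham 3. AAV_TAC against AAV_sham gave −0.66 (SE 0.51, adjusted p = 0.899), which became 0.24 without AAV_sham 4. Averaged over PBS and vector, TAC gave −0.72 (SE 0.40, adjusted p = 0.361). The vector gave 0.77 (SE 0.56, adjusted p = 0.399) after sham surgery, −0.13 without AAV_sham 4, and 0.88 (SE 0.58, adjusted p = 1) after TAC.

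Cyp26a1 (ENSMUSG00000024987, chr19:37697798-37701536, plus strand), the other main breakdown enzyme and a target of the receptors through the element printed above, was close to the limit of detection. It had at most 3 counts in 17 of 30 libraries and 23 counts at most. In KO_TAC it was at 0.3921, 0.45, 0 and 0.05949 CPM and in FF_sham at 0.06105, 0.2177, 0 and 0.0616 CPM, so these groups overlapped. PBS_sham held the highest values, 0.4929, 0.3873 and 0.9149 CPM. It did not reach the count filter in either cohort and was not tested. Cyp26c1, the third enzyme of the family, had at most 4 counts in every library.

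Of the synthesis genes, Aldh1a1 and Aldh1a3 were higher in the overloaded knockouts than in most other floxed hearts. Aldh1a1 (ENSMUSG00000053279, chr19:20492715-20643465, plus strand), a retinal dehydrogenase that also oxidises other aldehydes, was at 71.9, 38.85, 27.06 and 35.28 CPM in KO_TAC. It was at 18.19, 28.06, 16.48 and 24.9 CPM in KO_sham, at 26.5, 27.77, 19.49 and 20.6 CPM in FF_TAC and at 14.59, 19.22, 19.22 and 19.4 CPM in FF_sham. The lowest overloaded knockout lay within the range of both comparison groups, and the highest, KO_TAC 1, stood far above the rest. As a description, the log2 fold change was 0.99 (SE 0.25) against KO_sham and 0.88 (SE 0.25) against FF_TAC, and these were 0.61 and 0.50 without KO_TAC 1, or 1.12 and 0.87 without the 3 libraries. That library also had 8438 CPM of atrial muscle markers (Myl7, Myl4, Sln), against 3.629 to 6.75 CPM in the other 3 of its group, and their part in its level was not tested.

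TAC in the floxed controls placed all 4 FF_TAC libraries above all 4 of FF_sham for Aldh1a1, as it did for 2.73% of all genes. The log2 fold change was 0.38 (SE 0.26) and the adjusted p was 0.568, so the difference did not pass. Knockout after sham surgery gave 0.27 (adjusted p = 1.0).

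Aldh1a3 (ENSMUSG00000015134, chr7:66390890-66427517, minus strand) was the least abundant of the 3 synthesis genes per kilobase. It was at 4.705, 2.625, 3.778 and 4.164 CPM in KO_TAC and at 1.698, 1.446, 1.961 and 2.153 CPM in FF_TAC. It was at 2.026, 2.247, 1.196 and 2.714 CPM in KO_sham and at 1.343, 1.742, 1.251 and 1.417 CPM in FF_sham. All KO_TAC libraries were above all of FF_TAC, and KO_TAC 2 fell just below the highest of KO_sham. As a description, the log2 fold change was 1.08 (SE 0.25) against FF_TAC and 0.91 (SE 0.25) against KO_sham, or 0.98 and 0.94 without the 3 libraries. Tested in the controls, TAC gave 0.33 (SE 0.26, adjusted p = 0.630) and the knockout 0.50 (SE 0.26, adjusted p = 1.0).

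Some fibroblast markers moved with both genes. Of Pdgfra, Col1a1, Dcn, Tcf21 and Lum, 2 of 5 (Dcn and Col1a1, matrix genes) were higher by the test in KO_TAC in both comparisons. Of all genes, 14.3% were higher by the test against KO_sham and 7.53% against FF_TAC. Pdgfra, a surface receptor of fibroblasts, was at −0.40 (SE 0.23) on the log2 scale against KO_sham and −0.06 (SE 0.23) against FF_TAC, and Lum at 0.09 and 0.31. The sum of the 5 is mostly Dcn and Col1a1, and it ran from 1265 to 1449 CPM in KO_TAC, from 670.1 to 955.9 in KO_sham, from 725.4 to 828.3 in FF_TAC and from 615.1 to 798.1 in FF_sham. None of the 5 was near 0 in a group. Across 30 libraries, log2 Aldh1a3 had a Pearson r of 0.87 with the fibroblast sum (0.887 floxed, 0.841 AAV9) and log2 Aldh1a1 an r of 0.792 (0.799 floxed, 0.858 AAV9). These correlations are descriptions over libraries that share cohorts and groups, and the part of fibroblast RNA in either gene's level was not tested.

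Aldh1a2 (ENSMUSG00000013584, chr9:71215789-71296243, plus strand), the dehydrogenase that makes most retinoic acid in the embryonic heart, was at 10.59, 8.55, 14.89 and 12.43 CPM in KO_TAC. It was at 17.77, 5.405, 7.485 and 10.86 CPM in KO_sham, at 7.721, 5.181, 7.109 and 5.687 CPM in FF_TAC and at 3.785, 11.38, 7.62 and 4.62 CPM in FF_sham. The overloaded knockouts were above all of FF_TAC and within the range of KO_sham, whose values spread the most. As a description, the log2 fold change was 0.86 (SE 0.36) against FF_TAC and 0.16 (SE 0.35) against KO_sham, the latter −0.06 without the library labelled KO_sham 2 and 0.55 without KO_sham 1. Without the 3 libraries it was 0.78 against FF_TAC and −0.06 against KO_sham. In the controls TAC gave −0.10 (SE 0.36, adjusted p = 0.927), and the knockout after sham surgery 0.60 (SE 0.36, adjusted p = 1.0).

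**Figure D2:**
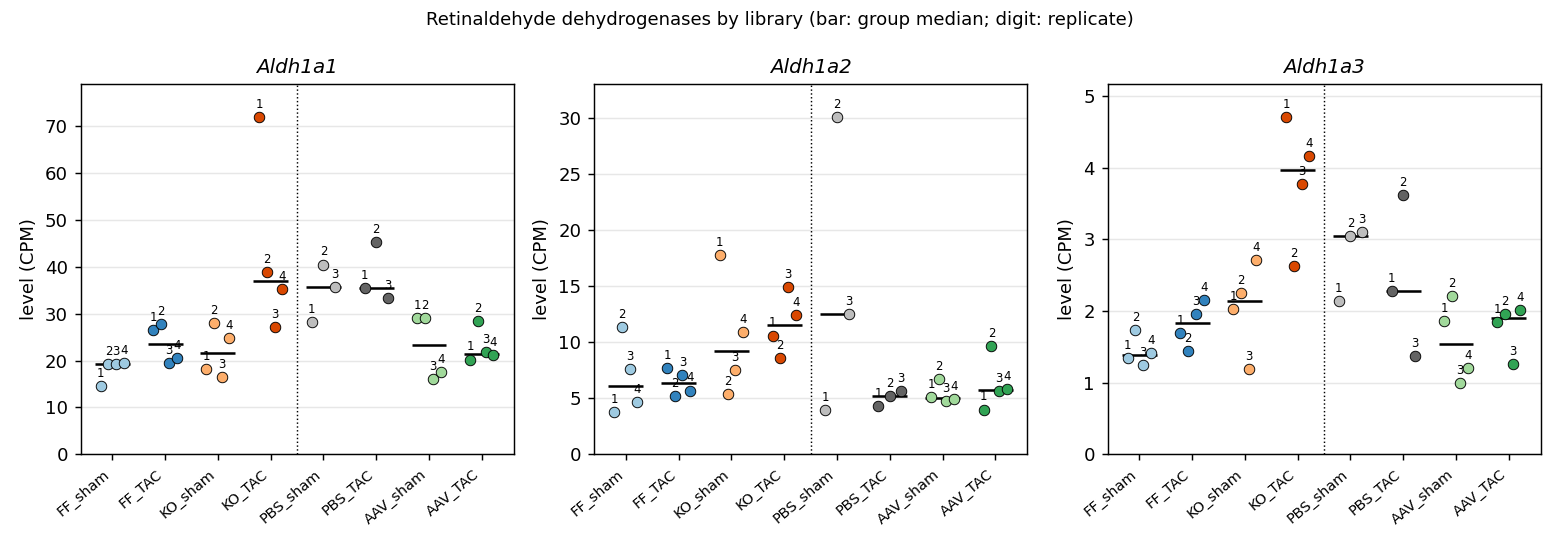
Aldh1a1, Aldh1a2 and Aldh1a3 in each library, in CPM on linear axes, by group, with replicate numbers and the group median as a short bar. KO_TAC 1 is the highest library for Aldh1a1 (71.9 CPM), PBS_sham 2 the highest for Aldh1a2 (30.04 CPM), and KO_TAC holds 3 of the 4 highest values for Aldh1a3.

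The AAV9 cohort showed other differences in the synthesis genes, none of which passed after adjustment. Aldh1a1 was at 28.26, 40.5 and 35.72 CPM in PBS_sham and 35.5, 45.25 and 33.38 CPM in PBS_TAC. It was at 29.06, 29.03, 16.01 and 17.62 CPM in AAV_sham and 20.23, 28.38, 21.88 and 21.11 CPM in AAV_TAC. After TAC, all 4 vector hearts were below all 3 PBS hearts, as they were for 4.25% of all genes. The log2 fold change was −0.73 (SE 0.22, adjusted p = 0.939) after TAC and −0.60 (SE 0.22, adjusted p = 0.180) after sham surgery, where the ranges overlapped. The fibroblast sum was 777.8 to 1106 CPM in PBS_TAC and 720.8 to 944.6 in AAV_TAC, 801.3 to 1136 in PBS_sham and 531.2 to 976.3 in AAV_sham, and its part was not tested. For Aldh1a3, the vector gave −0.82 (SE 0.34, adjusted p = 0.209) after sham surgery and −0.45 after TAC.

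Aldh1a2 in the AAV9 cohort turned on the PBS_sham group, with 3.943, 30.04 and 12.53 CPM. PBS_TAC was at 4.269, 5.239 and 5.607 CPM, AAV_sham at 5.087, 6.737, 4.733 and 4.903 CPM and AAV_TAC at 3.995, 9.612, 5.612 and 5.806 CPM. PBS_sham 2 and PBS_sham 3 were the 2 highest libraries of the cohort, while PBS_sham 1 was the lowest. PBS_TAC against PBS_sham gave a log2 fold change of −1.62 (SE 0.51, adjusted p = 0.181) and AAV_sham against PBS_sham −1.53 (SE 0.47, adjusted p = 0.156), and both share these 3 hearts. Without PBS_sham 1 both passed the threshold, at −2.07 and −1.98, and without PBS_sham 2 the first was −0.71 and the second −0.62. Without PBS_sham 3 they were −1.75 and −1.67. The summed mesothelial and epicardial markers (Wt1, Upk3b, Upk1b, Msln, Lrrn4), genes of the cells that cover the heart, were at 11.99, 296.2 and 182.4 CPM in PBS_sham and 7.368, 35.93 and 18.88 CPM in PBS_TAC. Their part in the difference was not tested. Log2 Aldh1a2 had an r of 0.71 with this sum over the 14 AAV9 libraries and 0.0697 over the 16 floxed ones, and KO_sham 1, the highest floxed library for Aldh1a2 at 17.77 CPM, had the lowest sum in that cohort, 5.572 CPM.

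Dhrs3 (ENSMUSG00000066026, chr4:144892827-144928209, plus strand), the retinal reductase that lowers the supply for retinoic acid synthesis, had the smallest standard errors of the members in the floxed fits. It was at 70.03, 71.74, 83.71 and 77.12 CPM in FF_sham, 70.04, 78.2, 73.6 and 76.97 in FF_TAC, 65.53, 75.73, 65.44 and 60.49 in KO_sham and 46.76, 77.93, 68.45 and 58.83 in KO_TAC. The groups overlapped throughout the floxed cohort, and KO_TAC 1 was the lowest library. As a description, its log2 fold change in KO_TAC was −0.08 (SE 0.13) against KO_sham and −0.25 (SE 0.13) against FF_TAC, or −0.03 and −0.24 without the 3 libraries. TAC in the controls gave −0.02 (SE 0.13, adjusted p = 0.962), and the knockout after sham surgery −0.18 (SE 0.13, adjusted p = 1.0). With PBS or vector it was at 69.94, 55.73 and 72.25 CPM in PBS_TAC and at 78.86, 86.1, 73.59 and 80.71 CPM in AAV_TAC, so all vector hearts were above all PBS hearts after TAC, as for 4.19% of all genes. That difference was 0.27 (SE 0.12, unadjusted p = 0.0368, adjusted p = 1).

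Rbp4 (ENSMUSG00000024990, chr19:38116629-38125281, minus strand), whose protein carries retinol in blood and is made mainly in liver and fat, was low in most hearts. In KO_TAC it was at 2.647, 1.425, 1.167 and 0.7139 CPM and in FF_TAC at 0.4381, 0.241, 0.1839 and 0.05522 CPM. In KO_sham it was at 0.2763, 0.4251, 0.104 and 1.357 CPM and in FF_sham at 0.06105, 1.361, 0.4549 and 0.4928 CPM. All overloaded knockouts were above all of FF_TAC, and they overlapped with the single high library of each sham group. It had 10 or more counts in 4 of 4 KO_TAC libraries, 1 of FF_sham, 1 of KO_sham and 0 of FF_TAC, so it entered the floxed test mainly through the group in which it was high. As a description, the log2 fold change was 2.67 (SE 0.80) against FF_TAC and 1.46 (SE 0.72) against KO_sham, the latter 2.46 without KO_sham 4 and 1.0 without KO_TAC 1. Without the 3 libraries they were 2.56 and 1.36. TAC in the controls gave −1.35 (SE 0.84, adjusted p = 0.548), and −0.54 without FF_sham 2.

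Rbp4 tracked markers of fat cells in most libraries. Over the 30 libraries, log2 Rbp4 had a Pearson r of 0.833 with the summed adipocyte markers Adipoq, Plin1, Cidec, Cfd and Retn (0.738 floxed, 0.9 AAV9), as a description of libraries that share cohorts and groups. In KO_TAC that sum was 21.22, 18.75, 0.5556 and 0.8923 CPM, so KO_TAC 3 and KO_TAC 4 had Rbp4 at 1.167 and 0.7139 CPM with hardly any adipocyte marker. None of the 5 markers passed the test in KO_TAC against KO_sham or against FF_TAC, where the sum ran from 0 to 16.87 CPM. In the AAV9 cohort Rbp4 was at 0.5476, 3.043 and 4.733 CPM in PBS_sham beside adipocyte sums of 19.66, 429 and 216.3 CPM. It was at 0.05848, 1.9 and 0.2645 CPM in PBS_TAC beside sums of 0.2339, 55.16 and 0.476 CPM, so the order of libraries was much alike. PBS_TAC against PBS_sham gave −1.92 (SE 1.03, adjusted p = 0.320), −4.02 without PBS_TAC 2 and −1.28 without PBS_sham 3. AAV_sham against PBS_sham gave −2.44 (SE 0.97, adjusted p = 0.200), with AAV_sham at 0.7555, 0.98, 0.2921 and 0 CPM, and −1.80 without PBS_sham 3, and both comparisons share the PBS_sham hearts. The part of fat tissue in these differences was not tested.

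Stra6 (ENSMUSG00000032327, chr9:58063788-58153996, plus strand), the membrane receptor for the Rbp4 protein, had 10 or more counts in 9 of 30 libraries and at most 3 counts in 8. In the floxed cohort it did not reach the count filter. There it was at 1.225, 0.075, 0.1667 and 0.3569 CPM in KO_TAC and at 0.0921, 0.5466, 0.104 and 0.5219 CPM in KO_sham, so the groups overlapped and the highest was KO_TAC 1. In the AAV9 cohort the highest library, AAV_sham 1, was at 3.123 CPM, and the rest of its group at 0.3062, 0.2337 and 0.5448 CPM. AAV_TAC was at 0.1998, 0, 0.3784 and 0.3839 CPM, and the log2 fold change against AAV_sham was −2.12 (adjusted p = 0.712), or −0.57 without AAV_sham 1. A library at 0 counts still allows up to 3 counts by counting error alone.

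**Figure D3:**
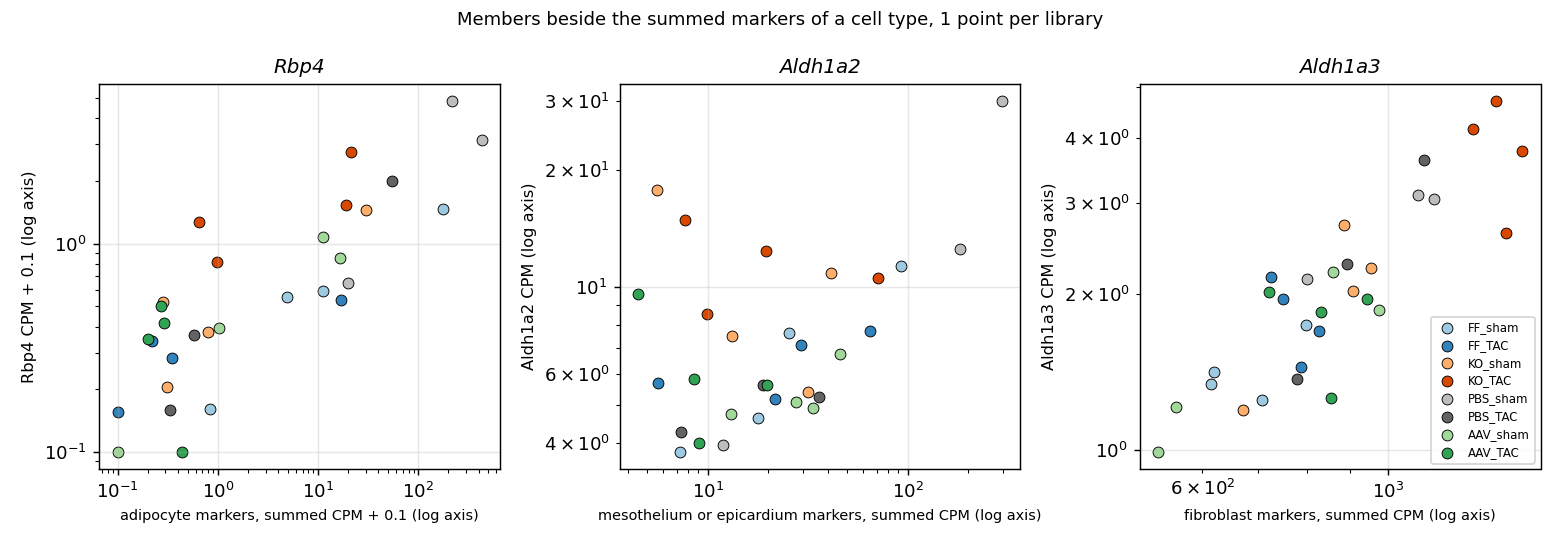
Rbp4 against summed adipocyte markers, Aldh1a2 against summed mesothelial and epicardial markers, and Aldh1a3 against summed fibroblast markers, each point a library, in CPM on log axes (0.1 added for Rbp4 and its markers). Pearson r of the log2 values over 30 libraries was 0.833, 0.418 and 0.87.

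Among the receptors, Rarb (ENSMUSG00000017491, chr14:16430839-16819156, minus strand), a receptor gene that retinoic acid itself induces, was at 6.224, 0.975, 2.889 and 3.807 CPM in KO_TAC. It was at 4.927, 8.381, 5.25 and 4.854 CPM in KO_sham, at 6.133, 3.554, 4.413 and 5.135 CPM in FF_TAC and at 5.434, 6.968, 5.857 and 5.79 CPM in FF_sham. In KO_TAC, 3 of 4 libraries were below all of KO_sham, and KO_TAC 1 was within its range. As a description, the log2 fold change was −0.73 (SE 0.36) against KO_sham and −0.45 (SE 0.36) against FF_TAC, ranging with the library left out from −1.18 and −0.90 (without KO_TAC 1) to −0.44 and −0.16 (without KO_TAC 2). Without the 3 libraries it was −0.52 and −0.69. TAC in the controls gave −0.32 (SE 0.36, adjusted p = 0.731), and the knockout after sham surgery −0.04 (adjusted p = 1.0). Rarb spanned 2.029 to 8.535 CPM in the AAV9 cohort, and no comparison passed. There PBS_TAC against PBS_sham was 0.08, or −0.32 without PBS_sham 3, and AAV_sham against PBS_sham 0.45, or 0.05 without it. Exons of Rarb overlap genes on the opposite strand, Gm48162 and Top2b, and the strand setting of the counting is not given in the sources used here, so reads of these genes may be shared.

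The other receptors were tested as genes of the wider pathway. In KO_TAC against KO_sham, 3 of 5 fell and the remaining 2 did not pass. Of all genes, 11.5% were lower by the test there. Rxrg, a retinoid X receptor, was at 32.25, 35.85, 37.34 and 43.55 CPM in KO_TAC and at 60, 45.31, 60.04 and 49.95 CPM in KO_sham. The groups did not overlap (12.1% of all genes were lower without overlap), and the log2 fold change was −0.53 (SE 0.12, adjusted p = 0.00709). Rxra, another retinoid X receptor, was at 46.85, 30.6, 36.95 and 40.81 CPM in KO_TAC and at 56.41, 65.83, 62.06 and 60.18 CPM in KO_sham, again without overlap. Its log2 fold change was −0.65 (SE 0.15, adjusted p = 0.00799). Rarg, a retinoic acid receptor, was at 24.41, 14.03, 13.89 and 15.53 CPM in KO_TAC and at 27.72, 25.45, 29.52 and 28.86 CPM in KO_sham, with −0.71 (SE 0.21, adjusted p = 0.0214), and it passed in 4 of 8 fits that each left out 1 library. Its adjusted p rose to 0.05188 without KO_sham 3, 0.05023 without KO_sham 4, 0.06248 without KO_TAC 2 and 0.07442 without KO_TAC 3. Rara (0.33, SE 0.13, adjusted p = 0.067) and Rxrb (−0.06, SE 0.09, adjusted p = 0.623) did not pass, though Rara did without KO_TAC 4 (0.39, adjusted p = 0.0445). With a haemoglobin term in the fit, the log2 fold change against KO_sham was −0.37 for Rxrg (adjusted p = 0.184), −0.48 for Rxra (adjusted p = 0.161) and −0.36 for Rarg (adjusted p = 0.374). In FF_TAC, Rxra was at 73.87, 46.81, 52.46 and 72.94 CPM, so FF_TAC 2 lay within the range of KO_TAC. In FF_sham it was at 79.12, 84.05, 73.93 and 82.91 CPM. Against FF_TAC, Rxra (−0.66, SE 0.15, adjusted p = 0.00928) and Rxrg (−0.68, SE 0.12, adjusted p = 0.00236) were lower, while Rarg (−0.63, SE 0.21, adjusted p = 0.0512), Rara (0.27, adjusted p = 0.163) and Rxrb (−0.18, adjusted p = 0.190) did not pass. Rarg passed there without FF_TAC 2 (adjusted p = 0.0156), without FF_TAC 3 (0.0430), without KO_TAC 1 (0.00496), with a replicate block (0.0455), with DESeq2 (0.0273), with limma-voom (0.00107), with a filter at a mean of 1 CPM (0.0473), in one fit of all 30 libraries (0.0238) and without the 3 libraries whose Cpt1a went against their label (−0.96, adjusted p = 0.00509). These were 9 of 19 alternative fits, and in the other 10 Rarg did not pass against FF_TAC. With the haemoglobin term Rxrg still passed against FF_TAC (−0.58, adjusted p = 0.0152). Rxra (−0.52, adjusted p = 0.0672) and Rarg (−0.35, adjusted p = 0.307) did not. Among the libraries low in haemoglobin alone, Rarg was at −0.24 (adjusted p = 0.817).

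**Figure D4:**
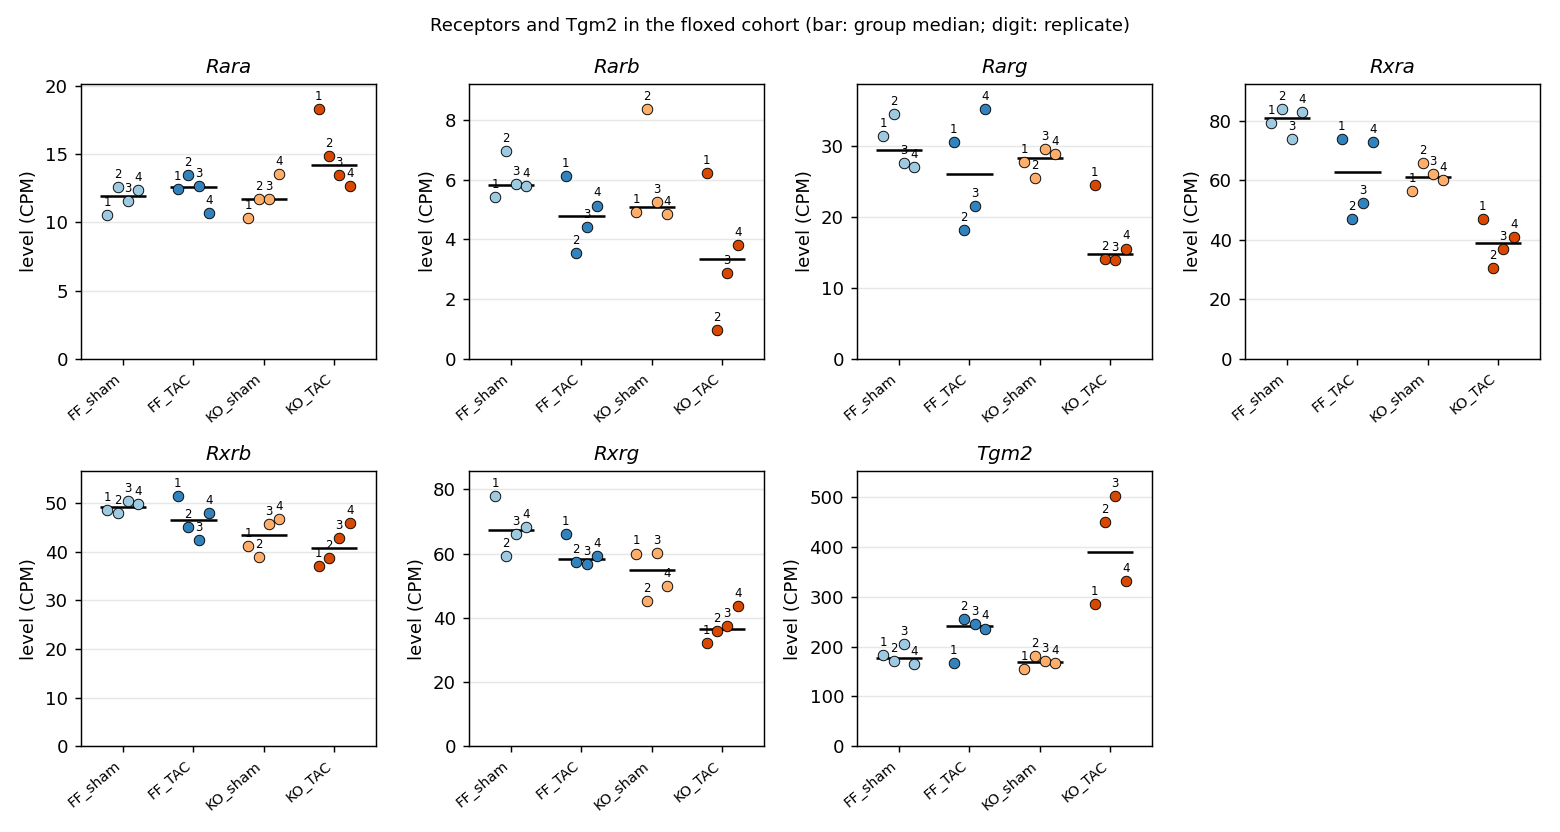
Rara, Rarb, Rarg, Rxra, Rxrb, Rxrg and Tgm2 in the 16 libraries of the floxed cohort, in CPM, with replicate numbers and group medians as short bars. By group median, Rarb, Rarg, Rxra, Rxrb and Rxrg are lowest and Rara and Tgm2 highest in KO_TAC. The ranges of KO_TAC and KO_sham overlap for Rara, Rarb and Rxrb.

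The pathway list held 52 further genes for carriers, oxidoreductases, ester and carotenoid enzymes, receptors, cofactors and genes known to answer to retinoic acid, and 35 of them were tested. In KO_TAC against KO_sham 14 of 35 passed, 4 higher and 10 lower, where 25.8% of all genes passed (14.3% higher, 11.5% lower). By role, 1 of 7 oxidoreductases fell, 1 of 3 ester and carotenoid genes rose and 1 fell, 2 of 6 cofactors fell, and of 10 responder genes 1 rose and 3 fell. In KO_TAC against FF_TAC 7 of 35 passed, 3 higher and 4 lower, where 14.3% of all genes passed (7.53% higher, 6.8% lower). The median log2 fold change of the 35 was −0.06 and −0.03 in these comparisons, and that of all genes 0.02 and 0.04. With a term in the fit that marks the libraries low in haemoglobin (under 100 CPM), 1 of the 14 and 3 of the 7 still passed. All 14 and all 7 kept their direction with that term, at 49.9% to 128% and 73.0% to 98.6% of the log2 fold change without it. Ttr, described next, is among the genes counted as higher in both comparisons although it passed the count filter only through KO_TAC. Among the libraries low in haemoglobin alone, where KO_TAC is set against FF_TAC 2 and FF_TAC 3, no pathway gene passed, with log2 fold changes of −0.64 for Rxrg, −0.38 for Rxra and 0.63 for Tgm2.

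Tgm2, a transglutaminase gene known to be induced by retinoic acid, was at 285.7, 449.4, 502.3 and 332.4 CPM in KO_TAC, at 155.6, 181.3, 171.4 and 166.2 CPM in KO_sham and at 167.7, 254.7, 244.8 and 236.3 CPM in FF_TAC. Its exons overlap genes on the opposite strand (Gm20412, Rprd1b), so reads may be shared. Its levels in KO_TAC did not overlap with either group. Without overlap, 6.7% of all genes were higher against FF_TAC, and that share is not given here against KO_sham. By the test, 14.3% of all genes were higher against KO_sham and 7.53% against FF_TAC. The log2 fold changes of Tgm2 were 1.22 (SE 0.17, adjusted p = 0.000658) against KO_sham and 0.80 (SE 0.17, adjusted p = 0.00595) against FF_TAC. It passed with the haemoglobin term as well (adjusted p = 0.0321 and 0.0387). Ttr, the blood partner of the Rbp4 protein, had 13 to 47 counts in KO_TAC, against 1 to 12 in KO_sham and 6 to 10 in FF_TAC, and so passed the count filter only through KO_TAC. As a description, with no test for that reason, its log2 fold change was 2.56 (SE 0.67) against KO_sham and 2.13 (SE 0.65) against FF_TAC. The fibroblast sums given with the Aldh1a genes were also higher in KO_TAC, and their part was not tested.

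Crabp2, Rdh10 and Lrat belong to other steps of the pathway. Crabp2, which delivers retinoic acid to the nucleus, had 8 to 21 counts in each KO_TAC library and at most 2 in each of the other 12 floxed libraries, and was not tested because it did not reach the count filter. Rdh10, the main retinol dehydrogenase of the embryo, was at 10.73, 4.2, 6.723 and 7.317 CPM in KO_TAC, with 0.17 (SE 0.22, adjusted p = 0.578) against KO_sham and 0.28 (SE 0.22, adjusted p = 0.408) against FF_TAC. Lrat, the enzyme that stores retinol as esters, did not exceed 0.6909 CPM in any library. In the other 9 comparisons edgeR called 0 of the 35 pathway genes, with 3 to 15 at an unadjusted p under 0.05. From 504 to 3247 of all 15596 (floxed) or 15745 (AAV9) genes were at an unadjusted p under 0.05 there. The 15 and the 3247 were both in AAV_sham against PBS_sham. DESeq2 called up to 2 of the 35 and limma-voom up to 8, the latter in the interaction of genotype and surgery.

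The counts of members by comparison summarise this. Of the 9, 7 were tested among floxed hearts and 8 among hearts of the AAV9 cohort. In the comparisons that chose the genes, 3 of 7 were past the threshold in KO_TAC against KO_sham (25.8% of all genes) and 4 of 7 in KO_TAC against FF_TAC (14.3% of all genes). In the same comparisons Cyp26b1 alone did not overlap against KO_sham, and Cyp26b1, Aldh1a2, Aldh1a3 and Rbp4 did not against FF_TAC, where 6.7% of all genes were higher and 6.8% lower without overlap. Against KO_sham, 12.1% of all genes were lower without overlap. In the interaction 0 of 7 were past it (0.0449% of all genes). None of these counts is evidence about the members, because their choice used the same values.

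In the comparisons that did not choose them, no member passed by edgeR, DESeq2 or limma-voom. TAC in floxed controls called 0 of 7 (0% of all genes, 0 members at an unadjusted p under 0.05), and so did the knockout after sham surgery (0% of all genes, 0 members). In the AAV9 cohort, TAC with PBS called 0 of 8 (0.0318% of all genes, 1 member at an unadjusted p under 0.05) and TAC with the vector 0 of 8 (0.00635%, 0 members). The vector after sham surgery called 0 of 8 (0.0127%, 4 members) and after TAC 0 of 8 (0.0381%, 2 members). The interaction of vector and surgery called 0 of 8 (0.00635%, 1 member), where Aldh1a2 had the smallest unadjusted p with a log2 difference of 1.84 (SE 0.68, adjusted p = 0.690), and TAC averaged over PBS and vector called 0 of 8 (0.927%, 0 members). Few genes of any kind passed in these comparisons. The percentages are at the adjusted threshold, unlike the counts of members in the same brackets. At an unadjusted p under 0.05 stood 1723 (TAC) and 799 (knockout) of 15596 floxed genes. Of 15745 genes in the AAV9 cohort it was 2901 for TAC with PBS and 1103 for TAC with the vector. For the vector it was 3247 after sham surgery and 504 after TAC, for the interaction 1086 and for averaged TAC 2796.

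**Figure D5:**
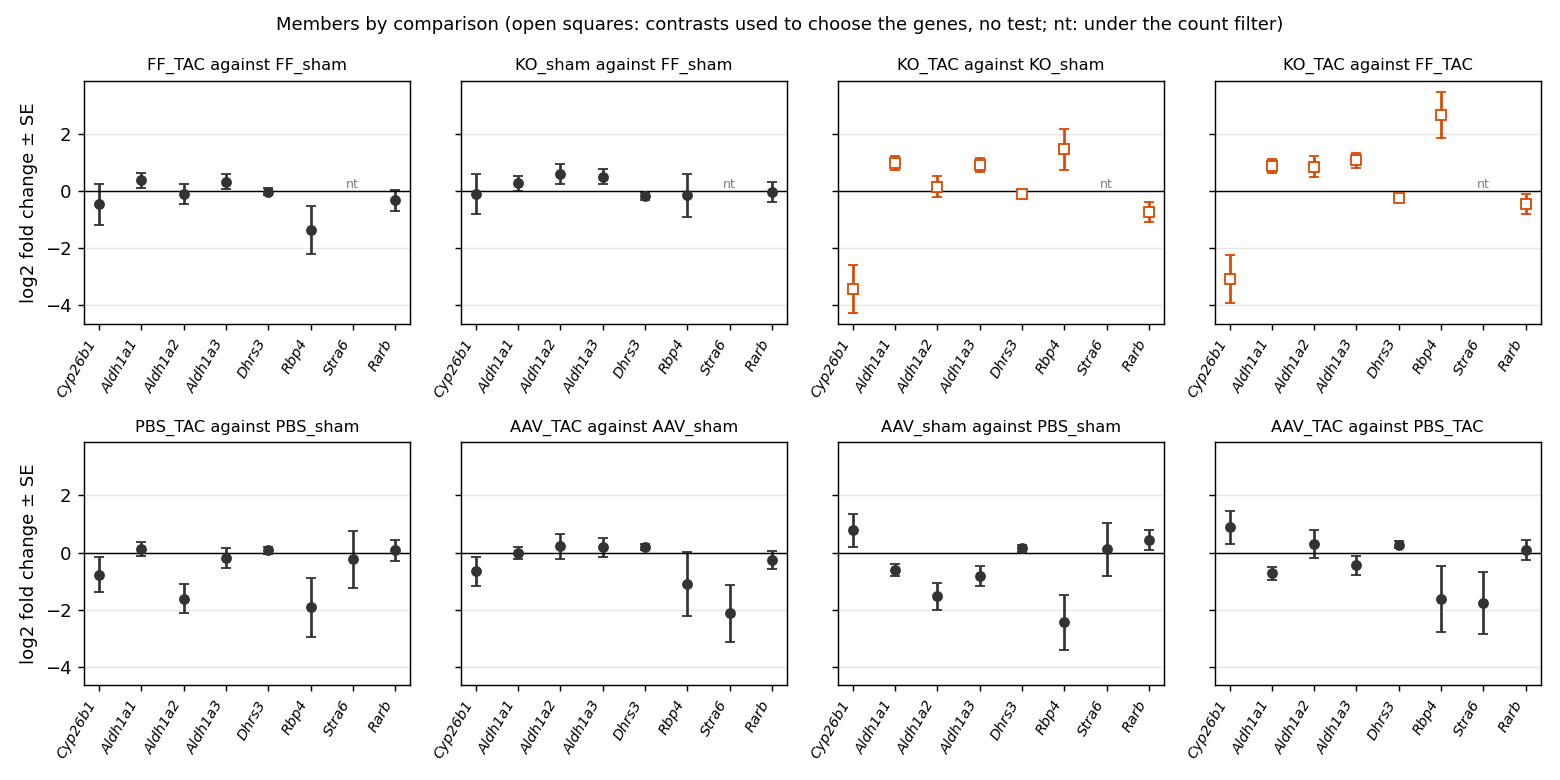
Log2 fold changes of the members with their standard errors in 8 comparisons. Open squares are the comparisons that chose the genes and carry no test, and nt marks genes under the count filter. Cyp26b1 stands at −3.43 and −3.07 in the comparisons with KO_TAC and between −0.77 and 0.88 in the others.

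Genes with a pattern like that of Cyp26b1 were ranked by Pearson r of log2 CPM over the 30 libraries after subtracting each cohort's mean, among 13740 genes. The 5 highest were Lama5, a laminin chain of basement membranes (r = 0.823), Mia2 (0.800), Mme, a membrane peptidase (0.791), Adamts7, a secreted metalloprotease (0.789), and Cpeb3, an RNA-binding protein (0.787). Lama5 also ranked highest by Spearman's rho, with r of 0.874 in the floxed and 0.669 in the AAV9 cohort and 0.688 after group means were subtracted. Its mean was 74.22 CPM (SD 13.47, n = 4) in KO_TAC and 174.2 CPM (SD 73.03, n = 4) in KO_sham. Cpt1a had an r of 0.668 with Cyp26b1 (0.734 floxed, 0.332 AAV9). Of the pathway genes, Rarg (0.666) and Rxra (0.664) were near it, Rarb was at 0.552 and Tgm2 had the lowest, −0.666. In the AAV9 cohort alone, r was 0.348 for Rarg, 0.220 for Rxra, 0.275 for Rarb, −0.424 for Tgm2 and 0.311 for Mme. After group means were subtracted, r was 0.394 for Rarg, 0.2825 for Rxra, 0.319 for Rarb, −0.095 for Tgm2 and 0.336 for Cpt1a. Cpt1a, Rarg and Rxra ranked 220, 226 and 233 among the 13740 genes. All these values are descriptions over libraries that share groups and cohorts.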

How the data were processed

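Poly(A) RNA libraries were made with a directional kit, per the labels' protocols. The authors deposited raw counts per Ensembl gene for 30 libraries. The submitters' processing notes name HISAT2 2.1.0, Subread 1.5.1, featureCounts and GRCm38, without roles; the strand setting is not given in the sources used here. Symbols, coordinates and exon lengths came from the annotation of GRCm38 supplied with the files, and 55141 of 55487 identifiers had a symbol; identifiers without one held 0.0192% of counts. CPM values used TMM factors of each cohort. edgeR 4.0.16 (R 4.3.3; quasi-likelihood F test, robust, filterByExpr) was fitted to each cohort separately, with Benjamini-Hochberg adjustment over 15596 genes (floxed) or 15745 (AAV9) and a threshold of 0.05. SE is the absolute log2 fold change over the square root of F. The fit was tested on simulated data. DESeq2 1.42.0 and limma 3.58.1 (voom) were alternatives. No replicate pair in a group agreed within counting noise (chi-square per degree of freedom 6.8 to 262).

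The 9 members, the pathway and marker lists and the tests were chosen with earlier results of these data known. Named were all members, Cpt1a, in each comparison up to 4 called pathway genes with the largest change and at least 1 CPM, a fixed set of receptors and carriers, and the 5 genes most like Cyp26b1. Haemoglobin-low means under 100 CPM of summed haemoglobin transcripts. The haemoglobin term marks each floxed library as low or not, and every KO_TAC library is low. Intervals and floors of 3 counts cover counting error only. The result of 1 listed gene is not reported here.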

Additional observations from a re-analysis of the deposited data

Results flagged for a closer look

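In groups of 4 libraries, 4 of 54 member and group pairs had a single library far outside the rest by Dixon's criterion, which chance alone gives in about 1 group of 20. Cyp26b1 was at 33.28 CPM in the library labelled KO_sham 2, while the other 3 were at 4.489 to 5.342 CPM. Rarb was at 8.381 CPM in the same library, against 4.854 to 5.25 CPM, and this is the library whose Cpt1a (46.22 CPM) went against its label. Aldh1a1 was at 14.59 CPM in FF_sham 1, below the others at 19.22 to 19.4 CPM. Stra6 was at 3.123 CPM in AAV_sham 1, above the others at 0.2337 to 0.5448 CPM.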

How the results depend on the processing

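The number of members past the threshold in KO_TAC against KO_sham was 3, and it was 5 with limma-voom, 1 when only the groups compared were fitted and 1 with a haemoglobin term. Leaving out single libraries gave 2 to 4. In KO_TAC against FF_TAC it was 4, and it was 1 with no filter on low counts, 2 when only the groups compared were fitted, 2 with the haemoglobin term, 1 without FF_TAC 2, FF_TAC 3 and KO_sham 2, 0 among libraries low in haemoglobin only, and 1 to 4 with single libraries left out (1 without FF_TAC 4). The haemoglobin and the label settings were chosen after seeing the data. In those settings Cyp26b1 stayed below −2 in both comparisons: −3.88 and −3.79 with the haemoglobin term, −2.76 against FF_TAC among libraries low in haemoglobin, and −2.18 and −3.36 without the 3 libraries. The cause was not tested. Leaving out single libraries gave 0 to 1 members in PBS_TAC against PBS_sham, 0 to 2 in AAV_sham against PBS_sham and 0 to 1 in TAC averaged over PBS and AAV, each time through PBS_sham 1.

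Called pathway genes in KO_TAC against KO_sham numbered 14, with 6 to 17 when single libraries were left out, 22 with limma-voom, 8 in the fit of these groups only, 13 without the 3 libraries and 1 with the haemoglobin term. In KO_TAC against FF_TAC they numbered 7, with 6 to 11, 16, 2, 11 and 4 in the same order.

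Replicate numbers did not pair libraries: same-numbered libraries had deviations correlated between −0.407 and 0.454. With a replicate block, Cyp26b1 was at −2.95 and −3.18, and members past the threshold numbered 3 and 3 in the comparisons with KO_TAC. Over all genes the block left 3908 of 4018 and 2159 of 2236 calls in number, and 26 against 146 in TAC averaged over PBS and AAV. Among the named receptors and Tgm2, fitting only the groups compared ended the calls of Rxra and Tgm2 against FF_TAC, and one fit of all 30 libraries that of Rxrg against KO_sham. Rarg against FF_TAC, at an adjusted p of 0.0512, passed with the block (0.0455). Low counts limit Cyp26a1, Stra6 and Rbp4.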
